A study of Mus musculus with 11 samples.

Results

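Amino acid transporters and the branched-chain aminotransferase Bcat1 were followed in CD4 T cells of the inflamed lacrimal gland. The genes are Bcat1 and Bcat2, the transporter pair Slc7a5 and Slc3a2, and the glutamine and neutral amino acid transporters Slc1a5, Slc38a1 and Slc38a2. They are 7 of 17097 genes, with 13 of the 28898 probe sets that the platform annotation gives exactly 1 gene symbol. The 7 symbols were chosen by the measured differences between the groups of these same arrays, so their levels and differences are given as a description with no test, and all their probe sets were taken. Of the 7 probe sets with the highest gland mean of each gene, called main here, 6 lay above the background limit on all 11 arrays. The exception was Bcat1, which lay above it on 1 of 3 LG_naive arrays and on every other array. Each array's background limit, the top value among its nonspecific control probe sets, was 0.945 to 1.70.

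The arrays measured RNA of T cells from male NOD mice aged 16 weeks. NOD males develop inflammation of the lacrimal gland (LG), the gland of the tear film, and are used to study Sjögren's syndrome. The labels give no altered gene and no agent for any group. Live CD4 and TCRβ positive gland cells were sorted into LG_eTreg, effector regulatory cells, LG_eTconv, effector conventional cells, and LG_naive, cells without surface PD-1 and ICOS, with 3 arrays each. Both effector subsets were high for PD-1 and ICOS, and the design states the same gate, low for CD73 and CD200, for both. Total CD4 cells (Spl_CD4) and total CD8 cells (Spl_CD8) were taken from spleen in these mice, on 1 array each, so gland against spleen has no replicate check. The labels do not say whether the 3 arrays of a subset came from separate mice or from pools, so the spread between them may be technical.

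The labels of the sorted cells were set against marker genes, and the values of a whole array that bear on later results were looked at. Foxp3, the regulatory T cell factor, stood at 8.18 ± 0.05 in LG_eTreg, 4.24 ± 0.62 in LG_eTconv and 3.95 ± 1.04 in LG_naive (log2 signal, mean ± SD, n = 3), 5.77 in Spl_CD4 and 2.39 in Spl_CD8. Cd4 lay at 8.43 ± 0.07, 8.97 ± 0.07 and 8.43 ± 0.03 in the same gland order and at 8.49 in Spl_CD4 and 2.47 in Spl_CD8. Cd8a was highest in Spl_CD8 (9.35) and averaged 5.17 ± 0.05, 6.48 ± 0.34 and 4.92 ± 0.36 in the same gland order, with 4.45 in Spl_CD4. It was higher in LG_eTconv than in LG_naive by 1.56 (limma, adjusted p = 0.00161), and by 1.185 on a second probe set. Cd8b1, at 1.08, 1.53 and 1.69, was not called. Whether CD8 cells entered the LG_eTconv sort was not tested. The T cell receptor gene Cd3e lay between 9.44 and 9.66 in group means. The median of all genes was 2.26 to 2.39 and 55.5% to 65.6% of genes were above the limit of their array. The 18S ribosomal control was high on LG_eTreg 3 (6.69) and LG_naive 1 (6.63), against 4.34 to 5.69 on the other arrays, and LG_eTconv 1 had the widest gap between the actin controls at the 3′ and 5′ ends (3.35, others 1.53 to 2.86). Without these 3 arrays Bcat1 differed by 6.09 for LG_eTconv minus LG_naive, 4.57 for LG_eTreg minus LG_naive and −1.52 for LG_eTreg minus LG_eTconv, against 6.35, 4.62 and −1.74 with them, and Bcat2 by −1.23 and −1.26 in the first and second of these, against −1.10 and −1.02. In RNA of bulk sorted cells, fewer cells of a type and less RNA per cell cannot be told apart.

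Branched-chain amino acids (leucine, isoleucine and valine) enter T cells mainly through a heterodimer of a light chain, encoded by Slc7a5, which carries the substrate, and a heavy chain, encoded by Slc3a2, which brings it to the surface. Inside the cell a branched-chain aminotransferase moves the amino group to α-ketoglutarate, giving glutamate and a branched-chain keto acid: Bcat1 encodes the cytosolic enzyme and Bcat2 the mitochondrial enzyme. Activated T cells are known to raise uptake of leucine and glutamine, and leucine is a signal for the growth kinase complex mTORC1. Glutamine and other neutral amino acids enter through Slc1a5 and through the sodium-coupled carriers Slc38a1 and Slc38a2.

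Both transferase genes are shown first by the 250 bases before their RefSeq starts (build GRCm38.p6; the first of 2 starts for Bcat2), since Bcat1 and Bcat2 differed in opposite directions between the effector subsets and LG_naive. Capitals mark a match to the AP-1 motif TGANTCA, the site of Fos and Jun dimers. The windows are chr6:145076158-145076407 and chr6:145048813-145049062 for Bcat1, both on the minus strand, and chr7:45569903-45570152 for Bcat2, on the plus strand.
Bcat1, first start: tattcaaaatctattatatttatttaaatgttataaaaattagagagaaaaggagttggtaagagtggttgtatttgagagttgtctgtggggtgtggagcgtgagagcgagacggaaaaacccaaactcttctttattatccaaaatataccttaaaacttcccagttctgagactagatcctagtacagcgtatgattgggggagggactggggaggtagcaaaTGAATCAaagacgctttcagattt
Bcat1, second start: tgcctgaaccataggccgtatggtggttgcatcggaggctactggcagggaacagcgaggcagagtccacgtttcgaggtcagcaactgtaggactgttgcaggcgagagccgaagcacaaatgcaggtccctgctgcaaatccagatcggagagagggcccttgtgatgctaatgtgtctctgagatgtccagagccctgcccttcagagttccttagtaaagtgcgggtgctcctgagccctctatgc
Bcat2: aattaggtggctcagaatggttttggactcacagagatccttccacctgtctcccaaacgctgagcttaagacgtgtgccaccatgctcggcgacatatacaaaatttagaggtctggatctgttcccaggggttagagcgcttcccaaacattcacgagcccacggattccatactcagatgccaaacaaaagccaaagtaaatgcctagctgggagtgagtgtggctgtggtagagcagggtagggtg

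Windows were on hand for 4 of the 7 genes (Bcat1, Bcat2, Slc3a2 and Slc38a2), 6 windows in all. Each was searched on both strands for 3 motifs: the Myc-type E-box CACGTG, the amino acid response motif TGATGNAA bound by Atf4 dimers, and TGANTCA. There was 1 match, so none overlapped: TGAATCA in the first Bcat1 window, 24 bases before the start. Of 32851 windows of the same length, 6.75% held TGANTCA, 6.02% CACGTG and 3.45% TGATGNAA. The first Bcat1 window had 37.6% G and C bases and the second 56.4%. A match is a string of letters and not a site, and which start the Bcat1 transcripts of these cells use was not measured.

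Bcat1 was high in both effector subsets, highest in LG_eTconv, and near background in LG_naive. On the main probe set, 1450871_PM_a_at, it read 6.15, 5.90 and 5.43 in LG_eTreg, 7.61, 7.49 and 7.59 in LG_eTconv, 0.72, 1.17 and 1.73 in LG_naive, 3.47 in Spl_CD4 and 3.88 in Spl_CD8 (log2 signal). No group overlapped another, and the order was LG_eTconv, LG_eTreg, Spl_CD8, Spl_CD4 and LG_naive. The log2 difference was 6.35 (SE 0.26) for LG_eTconv minus LG_naive, or 81.8-fold. It was 4.62 (SE 0.26) for LG_eTreg minus LG_naive, or 24.5-fold, and both folds rest on LG_naive values of which 1 of 3 was above its limit. LG_eTreg minus LG_eTconv was −1.74 (SE 0.26), so LG_eTreg lay 3.34-fold lower. Both spleen arrays were above all 3 LG_naive arrays and below all 6 effector arrays.

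The other Bcat1 probe sets were dim. 1455699_PM_at, above the limit on 4 of 11 arrays, averaged 1.02 ± 0.62 in LG_eTreg, 1.48 ± 0.38 in LG_eTconv and 0.38 ± 0.11 in LG_naive, with differences of 1.11 (LG_eTconv minus LG_naive) and 0.64 (LG_eTreg minus LG_naive, SE 0.31 each). 1430111_PM_a_at lay between 1.26 and 2.14 on all arrays, with differences of 0.37 and 0.22 (SE 0.16). The signs were those of the main probe set in all 3 comparisons, and the sizes were far smaller. With the mean of the 3 probe sets in place of the main one, the Bcat1 differences were 2.61 for LG_eTconv minus LG_naive, 1.82 for LG_eTreg minus LG_naive and −0.78 for LG_eTreg minus LG_eTconv.

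Bcat2, the mitochondrial isoform with a single probe set, was lower in both effector subsets than in LG_naive. Its values were 3.01, 3.24 and 3.52 in LG_eTreg, 3.21, 3.12 and 3.20 in LG_eTconv, 4.06, 4.48 and 4.30 in LG_naive, 3.96 in Spl_CD4 and 2.94 in Spl_CD8. The effector groups overlapped each other and neither overlapped LG_naive. LG_eTconv minus LG_naive was −1.10 and LG_eTreg minus LG_naive −1.02 (SE 0.16 each), about 2.15-fold and 2.03-fold lower. LG_eTreg minus LG_eTconv was 0.08 (SE 0.16). The single Spl_CD4 array lay just below the lowest LG_naive array, and Spl_CD8 below all gland arrays.

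Slc7a5 and Slc3a2, the light and heavy chain of the leucine transporter, differed in opposite directions. Slc7a5 read 4.13, 4.38 and 4.45 in LG_eTreg, 4.04, 4.50 and 4.08 in LG_eTconv, 5.13, 5.16 and 5.29 in LG_naive, 4.40 in Spl_CD4 and 4.13 in Spl_CD8. It was thus highest in LG_naive, by more than the spread of any group, and the effector and spleen values were mixed together. The differences were −0.99 for LG_eTconv minus LG_naive, −0.87 for LG_eTreg minus LG_naive and 0.12 for LG_eTreg minus LG_eTconv (SE 0.15 each).

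Slc3a2, whose heavy chain also pairs with other light chains and with integrins, was highest in LG_eTreg. It read 8.64, 8.48 and 8.54 in LG_eTreg, 8.46, 8.18 and 8.01 in LG_eTconv, 7.65, 7.95 and 7.89 in LG_naive, 6.86 in Spl_CD4 and 7.21 in Spl_CD8. The 5 groups did not overlap, though the gaps between neighbouring gland groups were narrow (LG_eTreg at least 8.48 against LG_eTconv at most 8.46, and LG_eTconv at least 8.01 against LG_naive at most 7.95). LG_eTreg minus LG_naive was 0.72, LG_eTconv minus LG_naive 0.39 and LG_eTreg minus LG_eTconv 0.34 (SE 0.14 each). Without LG_naive 1, LG_eTconv 1 and LG_eTreg 3 the second of these was 0.18.

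**Figure D1:**
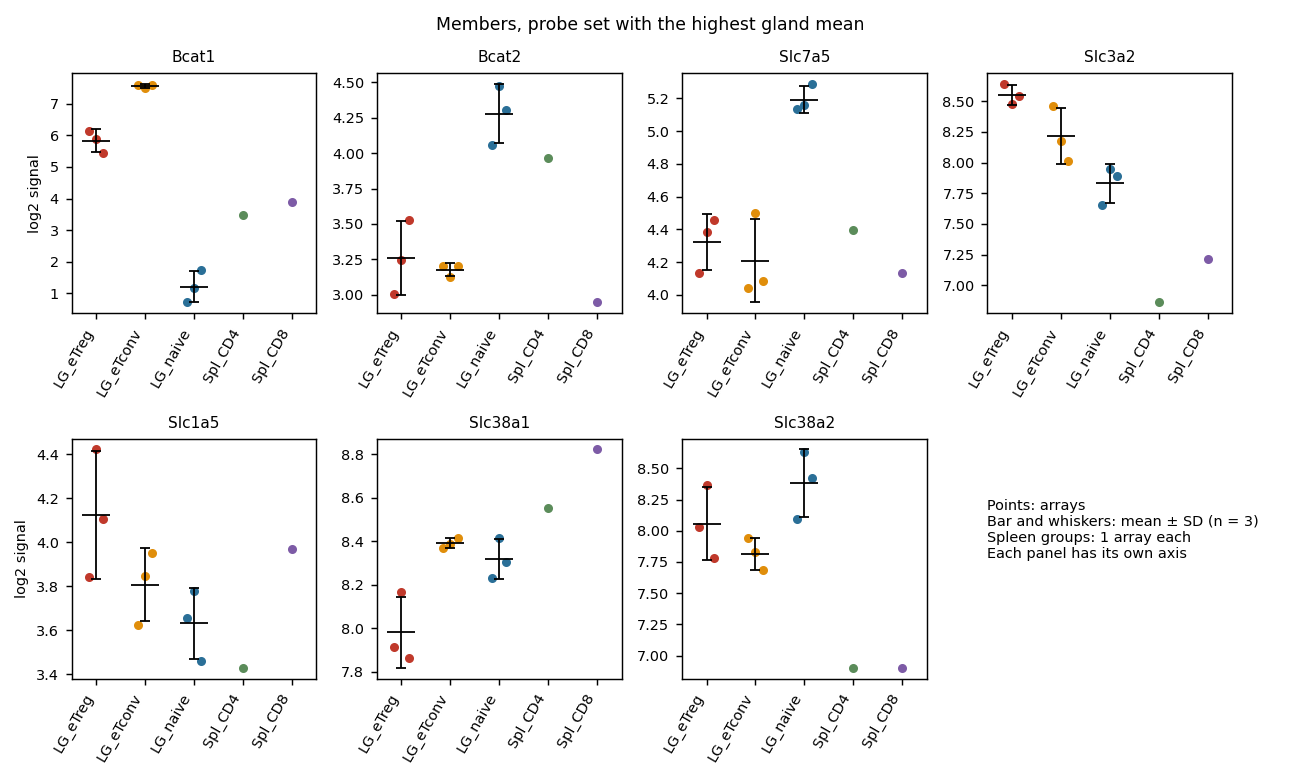
Log2 signal (vertical axes, each panel with its own scale) of the main probe set of the 7 genes on each array, by group (horizontal axes); points are arrays, the bar and whiskers the mean ± SD of 3 arrays, and each spleen group is 1 array. Bcat1 spans 0.72 in LG_naive to 7.61 in LG_eTconv, while Bcat2 and Slc7a5 are highest in LG_naive and Slc3a2 in LG_eTreg.

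The glutamine and neutral amino acid transporters differed by at most 0.57 in size on their main probe sets. Slc1a5 (1416629_PM_at), an exchanger for neutral amino acids with glutamine among its substrates, read 3.84, 4.42 and 4.10 in LG_eTreg, 3.63, 3.85 and 3.95 in LG_eTconv, 3.66, 3.78 and 3.46 in LG_naive, 3.43 in Spl_CD4 and 3.97 in Spl_CD8. LG_eTreg lay just above LG_naive without overlap (difference 0.49, SE 0.17), and LG_eTconv overlapped both. A dim second probe set, 1440379_PM_at, gave −0.19 (SE 0.19) for LG_eTreg minus LG_naive, the opposite sign, with overlap.

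Slc38a1, a sodium-coupled carrier, had its lowest gland mean in LG_eTreg on both of its probe sets. On 1454764_PM_s_at it read 7.91, 8.17 and 7.86 in LG_eTreg, 8.37, 8.39 and 8.41 in LG_eTconv, 8.23, 8.42 and 8.31 in LG_naive, 8.56 in Spl_CD4 and 8.82 in Spl_CD8. LG_eTreg did not overlap the other gland groups, which overlapped each other, and the differences were −0.41 against LG_eTconv and −0.34 against LG_naive (SE 0.11). On 1415903_PM_at the means were 5.23 ± 0.19 in LG_eTreg, 5.86 ± 0.24 in LG_eTconv and 5.53 ± 0.31 in LG_naive, with −0.63 for LG_eTreg minus LG_eTconv (SE 0.19) and −0.30 for LG_eTreg minus LG_naive.

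Slc38a2, a carrier of the same family known to be induced when amino acids run short, had 3 probe sets that gave no common order among the gland groups. On 1426722_PM_at it read 8.03, 8.36 and 7.78 in LG_eTreg, 7.94, 7.83 and 7.68 in LG_eTconv, 8.09, 8.63 and 8.42 in LG_naive, and 6.90 in both Spl_CD4 and Spl_CD8. LG_eTconv lay below LG_naive here (−0.57, SE 0.19, and −0.77 without LG_naive 1, LG_eTconv 1 and LG_eTreg 3) and LG_eTreg overlapped both. 1429593_PM_at gave −0.18 (SE 0.24) and 1429594_PM_at 0.41 (SE 0.19) for LG_eTconv minus LG_naive, and the groups overlapped on both.

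Counts over the 7 main probe sets stand beside those over all 17097 genes, where a call is an adjusted p under 0.05 in limma after Benjamini-Hochberg adjustment. For LG_eTconv minus LG_naive 3 of 7 were called, Bcat1 higher and Bcat2 and Slc7a5 lower, where 13.5% of all genes were called (6.45% higher and 7.02% lower). For LG_eTreg minus LG_naive 4 of 7 were called, Bcat1 and Slc3a2 higher and Bcat2 and Slc7a5 lower, where 11.7% of all genes were (6.20% higher and 5.47% lower). For LG_eTreg minus LG_eTconv Bcat1, lower, was the 1 called, where 5.70% of all genes were (2.94% higher and 2.76% lower). The groups did not overlap for 5, 6 and 3 of the 7 in these comparisons, where 31.1%, 27.1% and 21.5% of all genes showed this. The median difference was 0.07, −0.32 and 0.12, and over all genes −0.03, −0.02 and 0.01. Since the genes were selected with these contrasts in view, nothing is read from these counts, and the comparisons share their groups.

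**Figure D2:**
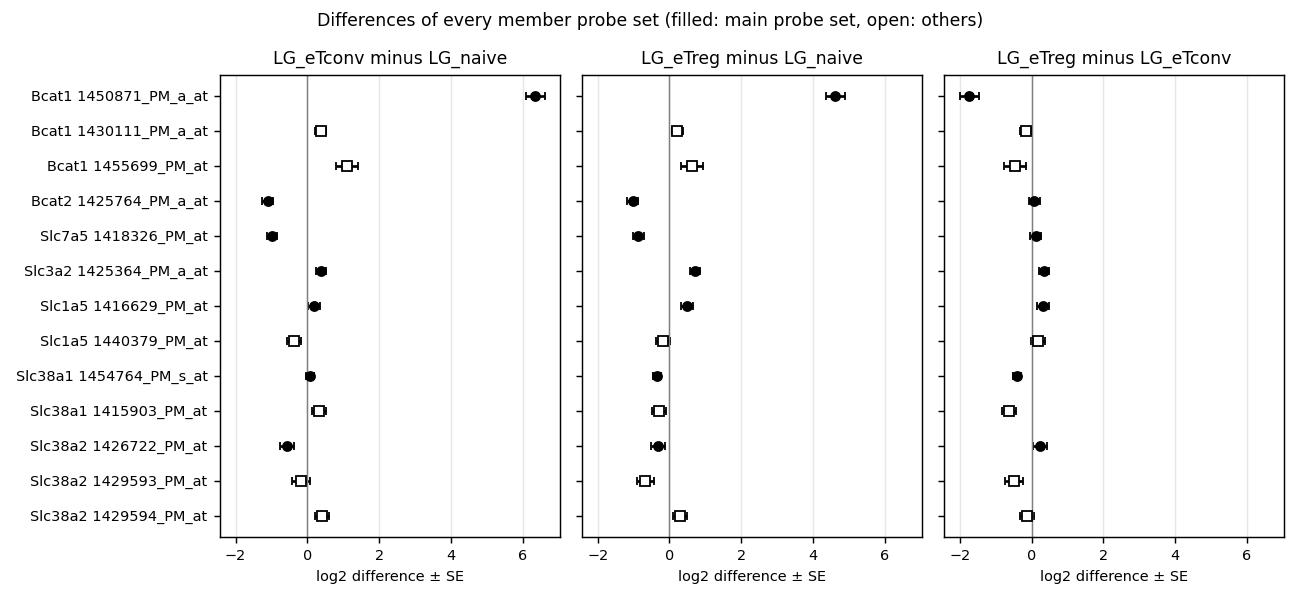
Log2 differences (horizontal axes) with the SE of the fit for all 13 probe sets (rows) in the 3 gland comparisons; filled points are main probe sets and open squares the others. Bcat1 on its main probe set, at 6.35, 4.62 and −1.74, stands far from the other 12 probe sets, which lie between −1.10 and 1.11.

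Gland against spleen was compared as a description, with 1 array per spleen group. LG_naive minus Spl_CD4 was −2.26 for Bcat1 and 1.48 for Slc38a2, with all LG_naive arrays on the same side, so 2 of 7 genes were past a difference of 1 in size, where 9.24% of all genes were. The other 5 were within it, among them Slc3a2 (0.97), Slc7a5 (0.80) and Bcat2 (0.32). All 9 gland arrays lay above both spleen arrays for Slc3a2 and Slc38a2, where 5.58% of all genes did. They lay below both for Slc38a1, where 6.34% of all genes did, but its second probe set, 1415903_PM_at, went the other way, with gland values of 5.01 to 6.08 against 4.60 and 4.67 in spleen. For Slc38a2 the dimmest probe set, 1429594_PM_at, read 3.82 to 4.61 in the gland and 1.60 and 2.44 in spleen, but 1429593_PM_at overlapped, with 5.85 to 7.25 in the gland and 5.99 in Spl_CD4 and 5.40 in Spl_CD8. Tissue, subset and cell sorting differ together between gland and spleen and cannot be told apart.

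By root mean square distance between values centred on the gland mean, over 11 arrays and 15410 genes (other members and clone or numbered names left out), the 4 genes nearest to Bcat1 were Slc9b2 (0.671), Chst2 (0.825), Xkr6 (0.856) and Kcnq5 (0.909). Slc9b2, a sodium-proton exchanger, averaged 4.49 in LG_eTreg, 7.07 in LG_eTconv and 1.10 in LG_naive, with 2.81 in Spl_CD4 and 2.01 in Spl_CD8. Chst2, a sulfotransferase, averaged 5.35, 6.43 and 1.05 in the same gland groups. All 4 were highest in LG_eTconv and lowest in LG_naive. Bcat2 spans a narrower range, and its nearest genes were Rbm47 (0.189), whose values lay near background, Ibtk (0.191), Zfp691 (0.207) and Tsc22d3 (0.232). Tsc22d3, a glucocorticoid-induced leucine zipper gene, averaged 6.72 in LG_eTreg, 6.66 in LG_eTconv and 7.92 in LG_naive. The likeness is a description over arrays that share groups.

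**Figure D3:**
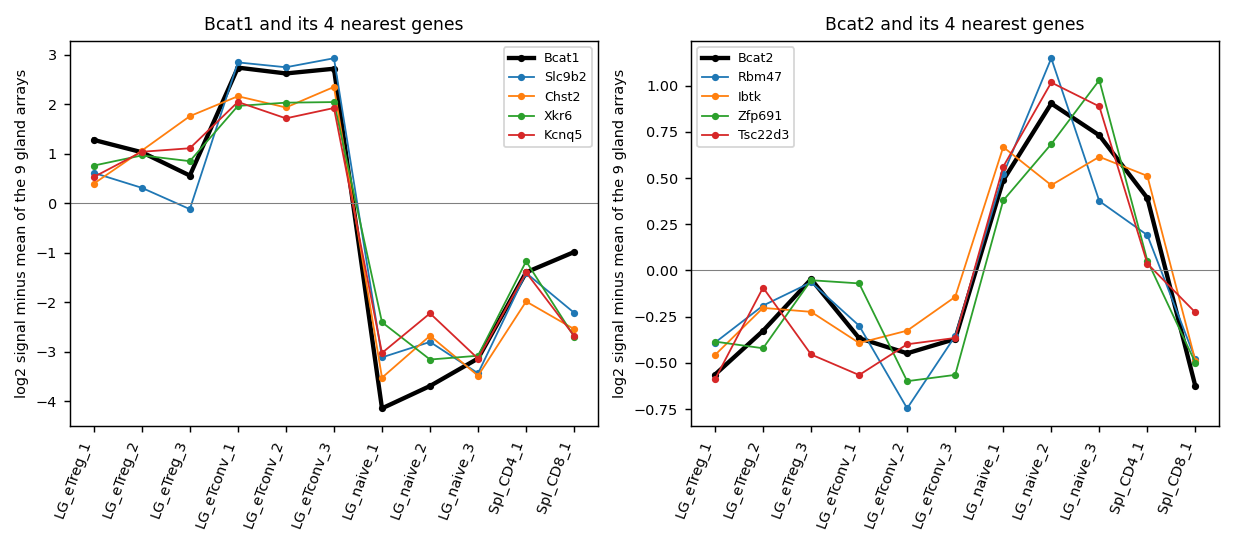
Log2 signal minus the mean of the 9 gland arrays (vertical axes) on each array (horizontal axes) for Bcat1 (left) and Bcat2 (right), black, and the 4 genes nearest to each. Slc9b2, at a distance of 0.671, runs closest to Bcat1, with both highest on the LG_eTconv arrays.

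The rest of amino acid handling was read from 7 lists of other genes, of which 124 of 147 had a probe set under 1 symbol. For LG_eTconv minus LG_naive 6 were higher and 13 lower (15.3% called), for LG_eTreg minus LG_naive again 6 and 13 (15.3%), and for LG_eTreg minus LG_eTconv 6 and 9 (12.1%). Of all genes 13.5%, 11.7% and 5.70% were called in these comparisons, and these shares are the background for each list below. The medians of the differences of the 124 genes were −0.06, −0.11 and −0.04, and over all genes −0.03, −0.02 and 0.01. The first count of 19 fell to 12 without LG_eTconv 2, the second to 9 without LG_naive 3, 11 without LG_eTconv 2 or LG_eTreg 2 and 12 without LG_naive 2. The count of 15 fell to 6 without LG_eTconv 3, 7 without LG_eTreg 2, 8 without LG_eTconv 1, LG_eTconv 2 or LG_naive 3, 9 without LG_eTreg 3 and 10 without LG_naive 2. The lists were written with earlier results of these data known, so their counts beside these shares are a description and not independent support. They are described by their counts alone, and adjusted p-values below come from limma over all genes.

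Other amino acid transporters were mostly not called: of 24, the counts were 1 higher and 2 lower in LG_eTconv against LG_naive, 2 higher and 1 lower in LG_eTreg against LG_naive, and 2 and 2 in LG_eTreg against LG_eTconv. Slc38a6, an orphan member of the Slc38a1 and Slc38a2 family, read 6.71, 6.06 and 5.95 in LG_eTreg, 7.62, 6.995 and 7.30 in LG_eTconv and 5.60, 6.06 and 5.92 in LG_naive. It rose in LG_eTconv by 1.45 (SE 0.24, adjusted p = 0.00444), and LG_eTreg lay 1.07 below LG_eTconv (difference −1.07, adjusted p = 0.0391, up to 0.215 over the 16 alternative settings). Slc15a4, a lysosomal histidine and peptide transporter known from dendritic and B cells, fell in both effector subsets. Its means were 2.47 ± 0.41 in LG_eTreg, 3.33 ± 0.25 in LG_eTconv and 4.62 ± 0.30 in LG_naive (differences −2.15, adjusted p = 0.000618, and −1.29, adjusted p = 0.00816).

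Transporters at the lysosome and plasma membrane that were higher in LG_eTreg came near the threshold. Slc36a1, a proton-coupled lysosomal carrier, averaged 5.74 ± 0.22 in LG_eTreg, 4.76 ± 0.34 in LG_eTconv and 4.69 ± 0.33 in LG_naive. It was higher in LG_eTreg by 1.05 against LG_naive (adjusted p = 0.0179, up to 0.0651 over the alternatives) and by 0.98 against LG_eTconv (adjusted p = 0.0414, up to 0.141). Slc43a2, a facilitated carrier of large neutral amino acids, was higher in LG_eTreg than in LG_eTconv by 1.40 (adjusted p = 0.0292, up to 0.11), with a second probe set at 1.19. Slc7a1, the arginine and lysine carrier, was lower in LG_eTreg than in LG_eTconv by 0.39 (difference −0.39, adjusted p = 0.0498, up to 0.149). Slc38a10 was called higher in LG_eTreg than in LG_naive (0.43, adjusted p = 0.0441, up to 0.37). That call held under 2 of 16 alternatives, and its 8 probe sets gave differences from −0.277 to 0.756. The taurine carrier Slc6a6 was called lower in LG_eTconv than in LG_naive (−0.44, adjusted p = 0.0458, up to 0.446). Slc7a6, another light chain of Slc3a2, averaged 5.95, 5.98 and 5.65 in LG_eTreg, LG_eTconv and LG_naive (adjusted p = 0.32 to 0.969), and Slc43a1 lay below background in the gland.

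Enzymes that act on branched-chain amino acids after the aminotransferase step were called lower in LG_eTreg in several cases and higher in none. Of 19 measured, 5 fell in LG_eTreg against LG_naive (median −0.32), 3 fell in LG_eTreg against LG_eTconv (median −0.64), and 1 rose and 1 fell in LG_eTconv against LG_naive (median 0.09). Of all genes 5.47% were called lower in LG_eTreg against LG_naive and 2.76% against LG_eTconv, and 6.45% rose and 7.02% fell in LG_eTconv against LG_naive. At an unadjusted p under 0.05 in limma, 0 were higher and 8 lower in LG_eTreg against LG_naive, and 0 and 12 against LG_eTconv. The share of all genes at this unadjusted level was not counted, here or for the lists below, so nothing is read from such counts. The count of 5 was 3 without LG_eTreg 2 or 3, LG_naive 2 or 3, or any LG_eTconv array, 4 without LG_naive 1 and 6 without LG_eTreg 1. The count of 3 was 5 without LG_eTreg 1 and 2 without any other array, and the calls of Pccb and Acadsb held under all 16 alternatives. Pccb, a subunit of propionyl-CoA carboxylase, read 3.28, 3.27 and 3.24 in LG_eTreg, 4.27, 4.34 and 4.47 in LG_eTconv and 4.91, 4.73 and 4.70 in LG_naive. No gland group overlapped another, and LG_eTreg fell by 1.52 against LG_naive (SE 0.10, adjusted p = 3.54e-05) and by 1.10 against LG_eTconv (adjusted p = 0.000366). LG_eTconv minus LG_naive was −0.42 (adjusted p = 0.0262, up to 0.201).

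Aldh6a1, the methylmalonate semialdehyde dehydrogenase of valine breakdown, read 4.32, 4.20 and 3.81 in LG_eTreg, 4.87, 4.68 and 4.72 in LG_eTconv and 5.32, 5.25 and 5.18 in LG_naive. It fell in LG_eTreg by 1.13 against LG_naive (SE 0.14, adjusted p = 0.00114), while the difference of −0.64 against LG_eTconv was less firm (adjusted p = 0.0357, up to 0.142). Acadsb, the short branched-chain acyl-CoA dehydrogenase of isoleucine breakdown, followed another order, with 5.30, 5.30 and 5.56 in LG_eTreg, 6.23, 6.54 and 6.72 in LG_eTconv and 5.76, 5.84 and 5.48 in LG_naive. It rose in LG_eTconv by 0.80 (adjusted p = 0.0111), and LG_eTreg lay below LG_eTconv (difference −1.11, adjusted p = 0.0044). Its probe set is of a type that can cross-hybridise (suffix x_at).

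Further enzymes were called lower in LG_eTreg. Ppm1k, a phosphatase that activates the branched-chain keto acid dehydrogenase, was lower in LG_eTreg than in LG_naive by 0.81 (difference −0.81, adjusted p = 0.00717). The Ppm1k call was not followed over the alternatives. Mmut, methylmalonyl-CoA mutase (−1.02, adjusted p = 0.0452, up to 0.271), and Acad8, isobutyryl-CoA dehydrogenase (−1.03, adjusted p = 0.0498, up to 0.132), were lower in LG_eTreg than in LG_naive too. Bckdha, a subunit of the keto acid dehydrogenase, averaged 1.51 ± 0.14 in LG_eTreg, 1.83 ± 0.37 in LG_eTconv and 1.50 ± 0.05 in LG_naive, near background, and Bckdk, its kinase, 2.39, 2.69 and 2.71, with no call (adjusted p = 0.329 to 0.984). 

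**Figure D4:**
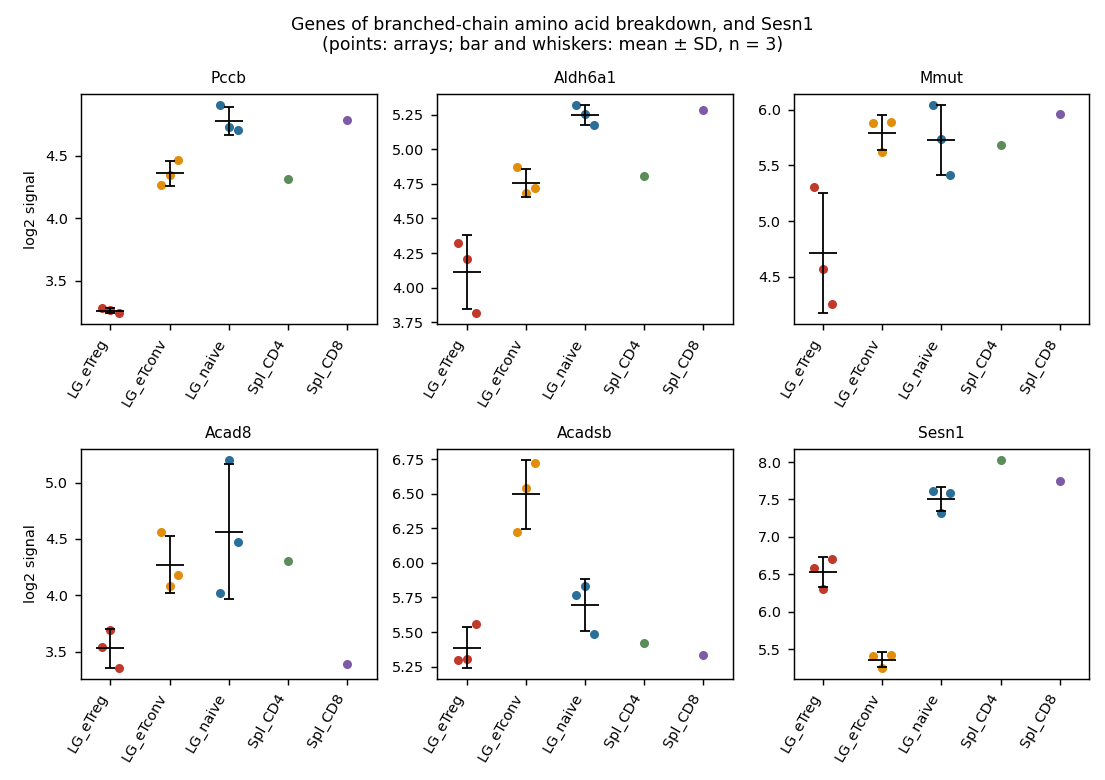
Log2 signal (vertical axes) of 5 enzymes of branched-chain amino acid breakdown and of Sesn1 by group; points are arrays, the bar and whiskers the mean ± SD of 3 arrays, and spleen groups are 1 array each. In the gland Pccb runs from 3.24 in LG_eTreg to 4.91 in LG_naive without overlap between subsets, with spleen at 4.31 and 4.78, and Acadsb is highest in LG_eTconv.

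Among 11 genes of glutamine and glutamate metabolism, 1 was higher and 1 lower in LG_eTconv against LG_naive, 2 were lower in LG_eTreg against LG_naive, and 0 were called between the effector subsets by limma (2 lower at an unadjusted p under 0.05), where the list's median was −0.15. Glud1, glutamate dehydrogenase, averaged 7.76 ± 0.05 in LG_eTconv and 7.11 ± 0.17 in LG_naive (difference 0.65, adjusted p = 0.00669, and 0.0857 with the mean of its probe sets). Oat, ornithine aminotransferase, was lower in both effector subsets, by −1.38 in LG_eTreg (adjusted p = 0.0295, up to 0.0887) and −1.22 in LG_eTconv (adjusted p = 0.0424, up to 0.226). Gpt, alanine aminotransferase, was lower in LG_eTreg (−0.98, adjusted p = 0.0388, up to 0.261).

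The amino acid response through the kinase Gcn2 and the factor Atf4 was split. Of 19 genes, 1 was higher and 5 lower in LG_eTconv against LG_naive, 3 higher and 1 lower in LG_eTreg against LG_naive, and 2 higher and 1 lower in LG_eTreg against LG_eTconv. Atf4 itself averaged 8.84 ± 0.26 in LG_eTreg, 8.53 ± 0.23 in LG_eTconv and 8.97 ± 0.08 in LG_naive, with no call (adjusted p = 0.131 to 0.733). Psat1, an enzyme of serine synthesis, read 7.39, 7.29 and 7.80 in LG_eTreg, 8.22, 8.16 and 7.99 in LG_eTconv and 7.04, 7.12 and 7.05 in LG_naive. It rose in LG_eTconv by 1.05 (adjusted p = 0.00154), and the difference of LG_eTreg from LG_eTconv was −0.63 (adjusted p = 0.0412, up to 0.132). Phgdh, the first enzyme of the same route, went the other way in LG_eTconv (−1.24, adjusted p = 0.0146, up to 0.0605).

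Nupr1, Ppp1r15a and Ddit3, stress response genes of the list, were called lower in LG_eTconv. Nupr1, a stress-induced nuclear protein, averaged 5.74 ± 0.34 in LG_eTconv and 7.67 ± 0.29 in LG_naive, and fell by 1.93 (adjusted p = 0.00124). LG_eTreg, at 6.91 ± 0.40, was called above LG_eTconv (1.18, adjusted p = 0.0318, up to 0.123). Ppp1r15a, which recruits the phosphatase of eIF2α, fell by 0.97 in LG_eTconv (adjusted p = 0.00248) and was lower by −0.72 in LG_eTreg (adjusted p = 0.0131, up to 0.0503). Ddit3, a factor downstream of Atf4, was lower in LG_eTconv (−0.97, adjusted p = 0.0217, up to 0.0709). Asns, asparagine synthetase, was higher in LG_eTreg, with 5.27, 4.96 and 4.30 against 3.23, 4.12 and 2.86 in LG_naive (1.44, adjusted p = 0.0337, up to 0.107), and Ddit4, an mTORC1 inhibitor, was higher there too (0.70, adjusted p = 0.044, up to 0.126). Cebpb, a leucine zipper partner of Atf4, averaged 6.90 ± 0.17 in LG_eTreg, 4.96 ± 0.15 in LG_eTconv and 5.70 ± 0.21 in LG_naive on its main probe set, and no call held with the mean of its 3 probe sets.

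Of the 19 genes of this list, 7 were past a difference of 1 for LG_naive minus Spl_CD4, all higher in LG_naive, where 9.24% of all genes were past it in either direction. The other 12 were within it, Ddit4 at −0.57 and Psat1 at −0.09 among them. Nupr1 averaged 7.67 in LG_naive against 0.97 in Spl_CD4, Ppp1r15a 8.51 against 3.90, Atf4 8.97 against 7.44, and Asns 3.40 against 1.65. Jun, a subunit of AP-1 and a gene of the list of regulators below, averaged 8.46 in LG_naive against 4.39 in Spl_CD4. Slc38a2, a member with a known amino acid response, lay above both spleen arrays on all 9 gland arrays on 2 of its 3 probe sets. Gland cells went through mechanical and enzymatic dissociation per the labels, and its part in these values was not tested.

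The sestrin genes Sesn1 and Sesn3 changed among the genes of amino acid sensing and mTORC1, and their calls held under all 16 alternatives. Of 24 genes of this list, 1 was higher and 3 lower in LG_eTconv against LG_naive, 0 and 2 in LG_eTreg against LG_naive (1 higher and 3 lower at an unadjusted p under 0.05 in limma), and 2 and 1 in LG_eTreg against LG_eTconv. Sesn1, a sestrin of the family that holds back mTORC1 and of which Sesn2 senses leucine, read 6.59, 6.31 and 6.70 in LG_eTreg, 5.41, 5.25 and 5.43 in LG_eTconv, 7.61, 7.32 and 7.58 in LG_naive, 8.03 in Spl_CD4 and 7.74 in Spl_CD8. It fell by 2.14 in LG_eTconv (SE 0.14, adjusted p = 2.09e-05) and by 0.97 in LG_eTreg (adjusted p = 0.00217), and LG_eTreg lay 1.17 above LG_eTconv (adjusted p = 0.00145). Its order among the gland groups was the reverse of the order of Bcat1.

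Sesn3, another sestrin, averaged 7.99 ± 0.07 in LG_eTreg, 8.91 ± 0.07 in LG_eTconv and 8.30 ± 0.08 in LG_naive. It rose in LG_eTconv by 0.61 (adjusted p = 0.00327), and LG_eTreg lay below LG_eTconv (difference −0.92, adjusted p = 0.000682). Rragd, a Rag GTPase that carries the amino acid signal to mTORC1, was lower in LG_eTconv than in LG_naive (−1.51, adjusted p = 0.00922) and higher in LG_eTreg than in LG_eTconv (1.68, adjusted p = 0.0111). Both Rragd calls ended without LG_naive 1, LG_eTconv 1 and LG_eTreg 3 (adjusted p up to 0.0648 and 0.0994). Fnip2 was lower in LG_eTconv (−1.56, adjusted p = 0.0297, up to 0.103) and Deptor in LG_eTreg (−1.49, adjusted p = 0.0323, up to 0.188). Mtor, the kinase, averaged 5.64, 5.62 and 5.56 in LG_eTreg, LG_eTconv and LG_naive, and its partner Rptor 5.30, 5.004 and 5.14, with no call (adjusted p = 0.607 to 0.974).

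Cytosolic aminoacyl-tRNA synthetases, which charge tRNAs with amino acids, gave 0 calls of 16 against LG_naive in limma for either effector subset, with medians of −0.24 in LG_eTreg and −0.21 in LG_eTconv. At an unadjusted p under 0.05, 5 were lower in LG_eTreg, and 1 was higher and 2 lower in LG_eTconv. Between LG_eTreg and LG_eTconv 2 were lower: Farsb, of the phenylalanine enzyme (−0.76, adjusted p = 0.0126, up to 0.09), and Vars, of the valine enzyme (−0.51, adjusted p = 0.0288, up to 0.18).

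Of 11 genes known to control Slc7a5 or Bcat1, 1 was higher and 1 lower in LG_eTconv against LG_naive, 1 higher and 2 lower in LG_eTreg against LG_naive, and 0 called between the effector subsets in limma (1 higher at an unadjusted p under 0.05), where the median was 0.02. Hif1a, the oxygen-regulated factor, averaged 9.10 ± 0.12 in LG_eTreg, 9.29 ± 0.08 in LG_eTconv and 8.26 ± 0.17 in LG_naive. It rose by 1.03 in LG_eTconv (adjusted p = 0.000633) and by 0.85 in LG_eTreg (adjusted p = 0.00227). Jun fell by 0.84 in LG_eTreg (adjusted p = 0.00451) and was lower by −0.63 in LG_eTconv (adjusted p = 0.0159, up to 0.0587). Myc, which is known to drive Slc7a5 and Bcat1 in dividing cells, averaged 5.57 ± 0.24 in LG_eTreg, 5.39 ± 0.28 in LG_eTconv and 6.25 ± 0.43 in LG_naive. Its differences from LG_naive were −0.68 (adjusted p = 0.13, down to 0.0306 over the alternatives) and −0.86 (adjusted p = 0.0521, down to 0.0126). Neither effector subset overlapped LG_naive for Myc. Yap1 was lower in LG_eTreg (−1.65, adjusted p = 0.0468, up to 0.141).

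**Figure D5:**
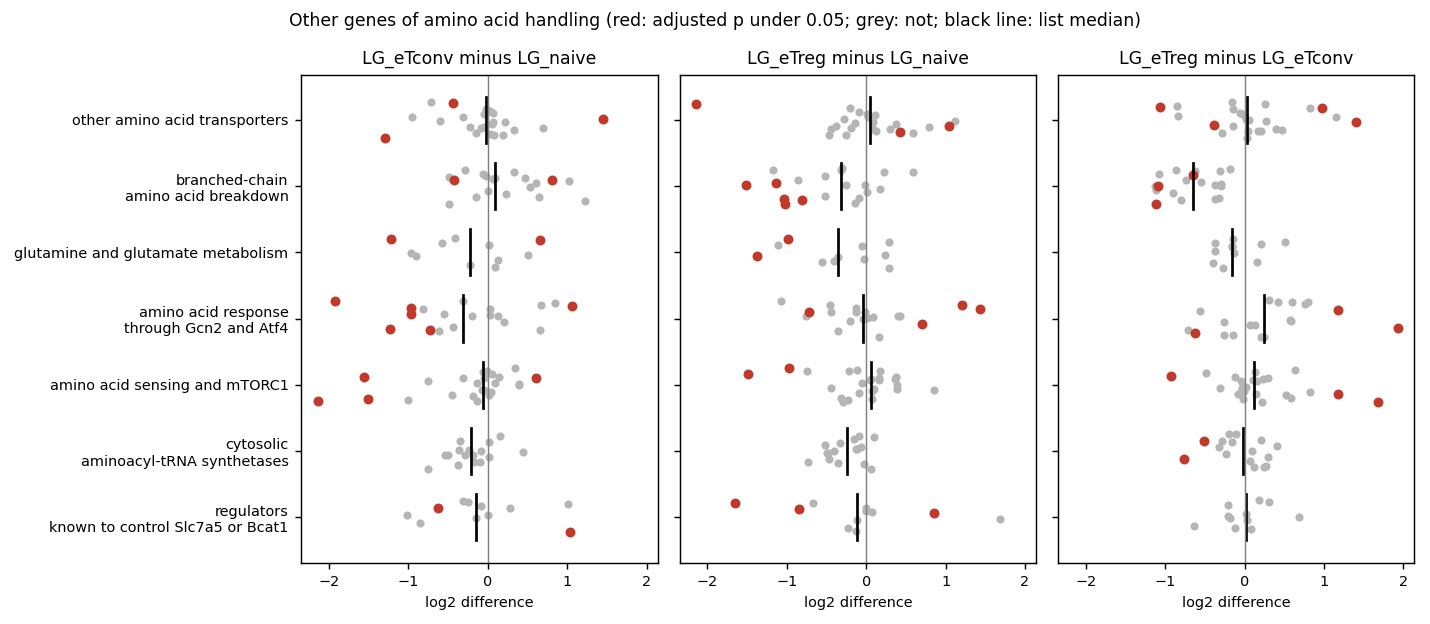
Log2 differences (horizontal axes) of the 124 other genes of amino acid handling in 7 lists (rows) for the 3 gland comparisons; red points were called at adjusted p under 0.05, grey were not, and black lines are list medians. The enzymes of branched-chain amino acid breakdown have medians of −0.32 and −0.64 in the comparisons of LG_eTreg with LG_naive and with LG_eTconv.

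Markers of other cells moved with the gland comparisons. Of 14 monocyte and macrophage markers 7 were lower in LG_eTconv and 6 in LG_eTreg than in LG_naive, and of 9 dendritic cell markers 7 in each, with 1 higher in LG_eTreg. Of 10 B and plasma cell markers 6 were lower in LG_eTreg and 1 in LG_eTconv, of 15 epithelial markers of the gland 4 and 6, and of 11 fibroblast, endothelial and erythrocyte markers 3 and 2. Of 10 CD8 T and natural killer markers, 1 was higher and 1 lower in LG_eTreg, and 2 and 2 in LG_eTconv. LG_naive thus held more signal of several other cell types than either effector subset. In LG_eTreg against LG_eTconv, 2 epithelial markers and 1 monocyte and macrophage marker were higher. CD8 T and natural killer markers had 1 higher and 1 lower, and the other lists 1 lower each, where 5.70% of all genes were called. The part of other cells in differences between the effector subsets was not tested.

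The summed linear signal shows the sizes. For dendritic markers it was 363 to 494 in LG_eTreg, 372 to 456 in LG_eTconv and 1070 to 1580 in LG_naive, with 5 to 6, 5 to 6 and 7 to 8 of the 9 above background. For monocyte and macrophage markers it was 718 to 858, 676 to 700 and 1040 to 1340 in the same order, with 10, 7 to 9 and 10 to 12 of 14 above background. For epithelial markers it was 197 to 348, 96.9 to 153 and 422 to 943, with 9 to 12, 7 to 10 and 10 to 12 of 15 above background, and for B and plasma cell markers 96.7 to 173, 189 to 290 and 353 to 428. Fibroblast, endothelial and erythrocyte markers summed to 26.4 to 43.8, 37.4 to 64.9 and 80.6 to 97.2, and CD8 T and natural killer markers to 67.3 to 94.5, 113 to 157 and 168 to 173. LG_naive was above both effector subsets without overlap in all 6 sums. Bright genes weigh most in a linear sum, so a higher sum is not a rise of every marker. Among CD8 T and natural killer markers Klrd1 averaged 3.25, 4.34 and 6.81 in the same order. Cd8a and Klrc1 were instead called higher in LG_eTconv than in LG_naive, and Klrc1 in LG_eTreg. Ctss, the brightest monocyte and macrophage marker in the gland, averaged 9.39, 9.13 and 9.24 with no call. Among epithelial markers Epcam averaged 6.37, 3.32 and 5.66, so its highest mean was in LG_eTreg. It was higher in LG_eTreg than in LG_eTconv by 3.06 (limma, adjusted p = 0.000645) and was not called between LG_eTreg and LG_naive. The sums move with the lower levels of Bcat2, Slc7a5, Slc15a4 and other genes in the effector subsets, and their part in those differences was not tested. B and plasma cell markers summed to 756 in Spl_CD4 and 1330 in Spl_CD8, above every gland array. Fibroblast, endothelial and erythrocyte markers, at 501 and 437, were above every gland array too, while epithelial markers, at 44.3 and 42.6, were below. The other sums of Spl_CD4 lay within the gland range. The part of other cells in gland against spleen was not tested.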

How the data were processed

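The 11 arrays hold deposited log2 signals per probe set. The submitters' processing notes name RMA and Partek without versions, and no label states the log base, which is taken from RMA's own scale. RMA puts all arrays on a common distribution, so values are relative to the other genes of an array. Probe sets with 1 symbol in the platform annotation were used, and the one with the highest mean over the 9 gland arrays stood for each gene. Tests were made with limma 3.58.1 in R 4.3.3, with a mean per group over 9 gland arrays, empirical Bayes, two-sided, and Benjamini-Hochberg adjustment over 17097 genes, called under 0.05. The method was tested on simulated data with independent normal noise. That simulation had no pairing, array quality effects or other cells, so it does not check for these. The members and lists were chosen with earlier results of these data known. Named genes were the members and up to 4 called genes per list and comparison with the largest difference. A fixed set (among them Myc, Atf4, Mtor and Slc7a1) and the 4 genes nearest to Bcat1 and Bcat2 were named too. Ppm1k, Cd8b1, Ctss and the other probe sets of Farsb and Hif1a fall outside these rules and were named after their values were seen. Some listed genes have no probe set under 1 symbol here and were not analysed. The alternatives were median centring, a filter on dim genes, other rules for probe sets, a replicate block, leaving out arrays, another empirical Bayes setting and fits of 2 groups. The number of arrays limits the precision. The fit has no replicate block, because no label says what a replicate number stands for.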

Additional observations from a re-analysis of the deposited data

Results flagged for a closer look

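A further pattern was sought only among the 124 measured genes of the lists of amino acid handling. For 4 of these 124 the effector subsets lay on opposite sides of LG_naive without overlap, and the difference between the subsets itself was called in limma. The share of all genes with this pattern was not counted. Cebpb was higher in LG_eTreg than in LG_eTconv by 1.934 (adjusted p = 0.000128), with LG_eTreg above and LG_eTconv below LG_naive. Sesn3 differed by −0.923 (adjusted p = 0.000682), Vars by −0.511 (adjusted p = 0.0288) and Slc7a1 by −0.388 (adjusted p = 0.0498), each with LG_eTconv above and LG_eTreg below LG_naive. On a second Slc7a1 probe set, 1454992_PM_at, LG_eTconv minus LG_naive was 0.019 and LG_eTreg minus LG_naive −0.607. The pattern for Slc7a1 thus rests on its main probe set. A second Sesn3 probe set gave 0.951 and −0.357 in these comparisons. The Sesn3 call held under all 16 alternatives. The Cebpb call ended with the mean of its probe sets (0.0807), of which all but the main one were dim. Those of Vars and Slc7a1 ended under most settings that left out an array.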

How the results depend on the processing

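Over 17 alternatives 1770 to 2515 genes were called for LG_eTconv minus LG_naive, 1512 to 2092 for LG_eTreg minus LG_naive and 672 to 1037 for LG_eTreg minus LG_eTconv. Of the members 3 to 4, 4 to 5 and 1 to 2 were called; for LG_eTreg minus LG_eTconv 2 were called, against 1, with the mean of probe sets, with another empirical Bayes setting and without LG_eTreg 2. Leaving out 1 array gave 12 to 20, 9 to 16 and 6 to 14 pathway genes called, against 19, 19 and 15, and 1770 to 2414, 1512 to 1845 and 683 to 969 of all genes. For LG_eTreg minus LG_eTconv 6 pathway genes were called without LG_naive 1, LG_eTconv 1 and LG_eTreg 3, and 7 with only the 2 groups in the fit; both have fewer arrays. Deviations from the group means correlated at −0.097 to 0.283 between arrays of the same replicate number and −0.23 to 0.186 between arrays of different numbers. Between LG_eTreg and LG_eTconv these ranges were 0.079 to 0.283 and −0.23 to 0.019. Every same-number pair of these subsets thus lay above every different-number pair, and the main fit leaves such pairing out. With the replicate number as a block 2271, 1929 and 906 genes, 22, 14 and 10 pathway genes and 3, 4 and 1 members were called. Genes past 1 for LG_naive minus Spl_CD4 numbered 1254 to 1712, against 1579. Differences of Bcat1, of Slc3a2, and of Bcat2 and Slc7a5 against LG_naive kept their sign under all 16 alternatives. Signs turned for small uncalled differences: Slc1a5 in LG_eTconv minus LG_naive (−0.10) and Slc38a2 in LG_eTreg minus LG_eTconv (−0.12), both with the mean of probe sets, and Bcat2 (−0.05) and Slc7a5 (−0.03) in LG_eTreg minus LG_eTconv. The causes were not tested.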

Other observations

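A dim second probe set of Hif1a and a further probe set of Farsb spread more between the gland groups than the main probe sets did, and were chosen after their values were seen. Farsb on 1430986_PM_at averaged 4.14 in LG_eTreg, 6.71 in LG_eTconv and 2.60 in LG_naive, while its main probe set averaged 7.62, 8.39 and 7.95. Hif1a on 1431981_PM_at averaged 2.72 in LG_eTreg, 3.93 in LG_eTconv and 0.86 in LG_naive, with 7 of 9 gland arrays above background. Both follow the order of Bcat1, highest in LG_eTconv and lowest in LG_naive. What these probe sets measure besides the main transcripts was not tested.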
